A study of Drosophila melanogaster with 23 samples.

Results

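Chromosome 4 of Drosophila melanogaster held 485 accessible regions in blastoderm embryos, of 25753 on all sequences. Each was an ATAC-seq peak, or a run of peaks overlapping by at least 1 bp, from the 22 peak lists of the study, and every merged region whose sequence name was 4 was kept. In ATAC-seq the transposase Tn5 inserts sequencing adapters into DNA that is free of nucleosomes, so a peak marks a stretch that was cut more often than naked genomic DNA. The regions of 2L, 3L and 3R, 15311 in all, served as the comparison.

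The study asked where chromatin is open in nuclei from different positions along the body axis. A nuclear envelope protein, UNC84 with a triple FLAG tag, was driven by enhancers of patterning genes in transgenic strains, and tagged nuclei were pulled down with an anti-FLAG antibody. Each of 7 domains had 2 tagged libraries, 14 in all. From anterior to posterior they were D1 (anterior hunchback enhancer), D3 (even-skipped stripe 1), D2 (even-skipped stripe 2), D4 (central Dichaete), D5 (central Kruppel), D6 (even-skipped stripe 5) and D7 (posterior giant). The controls were 8 whole-embryo libraries, 2 each from the strains of D1, D4, D5 and D7, made from all nuclei without the pull-down. All strains had a wild-type genetic background and carried a tag construct, so the controls carried it too. Embryos were at stage 5, collected over 20 min at 25 °C and frozen 190 min after collection began. The 2 libraries of a domain came from 2 transgenic lines, except in D3, where both carry the label of the same line. A tagged sample holds the nuclei that the enhancer marked and nothing in the lists measures its purity, so fewer open nuclei and less opening per nucleus cannot be told apart.

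Chromosome 4, also called the dot or Muller element F, is the smallest autosome of the fly. It is bound along most of its length by heterochromatin proteins such as HP1a and by the chromosome-specific protein POF, yet it carries actively transcribed genes at a density like that of ordinary chromosome arms. Its genes include the segment polarity gene cubitus interruptus (ci), the eye selector genes eyeless (ey) and twin of eyeless (toy), the Wnt effector pangolin (pan), the Polycomb-group gene pleiohomeotic (pho) and shaven (sv). No region is linked to a gene here, because the peak coordinates are on genome build dm3 and the gene table used is on a later build.

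The lists ran from 16997 to 22389 peaks in tagged nuclei, with a median of 19324.5, and from 19847 to 21373 in whole embryos. They held 271 to 420 peaks on chromosome 4 in tagged nuclei and 378 to 423 in whole embryos. Read depth was unknown. The lists fall into 3 styles of library naming. In 1 style, that of replicate 1 of both kinds of sample of D1, D4, D5 and D7, peak names carry no letter. In the other styles 28.4% to 32.6% of the peak names end in a letter, which the peak caller gives to the separate summits of a single peak. No peaks within a list overlapped, so a peak with several summits stands in it once, with the fold of a single summit. The part of this in the folds of single regions was not tested. A style of its own covers replicate 2 of D2, D3 and D6, so style and domain cannot be told apart there.

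Accessible regions were packed more densely on chromosome 4 than on the large arms. The 485 regions lay between positions 54429 and 1314148, a span of 1.26 Mb, or 38.5 regions per 100 kb, against 20.3 per 100 kb on 2L, 3L and 3R over 75.4 Mb. They covered 22.4% of the span of chromosome 4 and 15.3% of that of the arms. When the arms were cut into 59 windows as long as that span, the windows held 121 to 475 regions with a median of 247. None of the 59 windows held as many as chromosome 4, while 6 of them had a larger covered share.

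The difference in density appeared in every library. In tagged nuclei chromosome 4 had 21.5 to 33.3 peaks per 100 kb with a median of 26.6, and the arms had 13.4 to 17.6 with a median of 15.4. The ranges did not overlap. The mean was 27.2 ± 4.36 on chromosome 4 and 15.4 ± 1.26 on the arms (SD, n = 14), higher on chromosome 4 in 14 of 14 libraries (exact sign-flip permutation over libraries, two-sided p = 0.000122, the smallest it allows; adjusted p = 0.000407 over 10 tests). In whole embryos the means were 32.2 ± 1.03 and 16.4 ± 0.489 (SD, n = 8), higher on chromosome 4 in 8 of 8 libraries (same exact test, p = 0.00781, the smallest possible; adjusted p = 0.0112). These p-values measure the spread between libraries. They say nothing of other chromosomes, since chromosome 4 is a single one.

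Covered share followed the same direction. Peaks covered 13.6% ± 2.39 of chromosome 4 and 10.0% ± 1.05 of the arms in tagged nuclei (n = 14; exact sign-flip test, adjusted p = 0.000407), and 15.9% ± 0.920 and 10.6% ± 0.363 in whole embryos (n = 8; adjusted p = 0.0112). The difference was 3.53 percentage points in tagged nuclei and 5.31 in whole embryos.

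**Figure D1:**
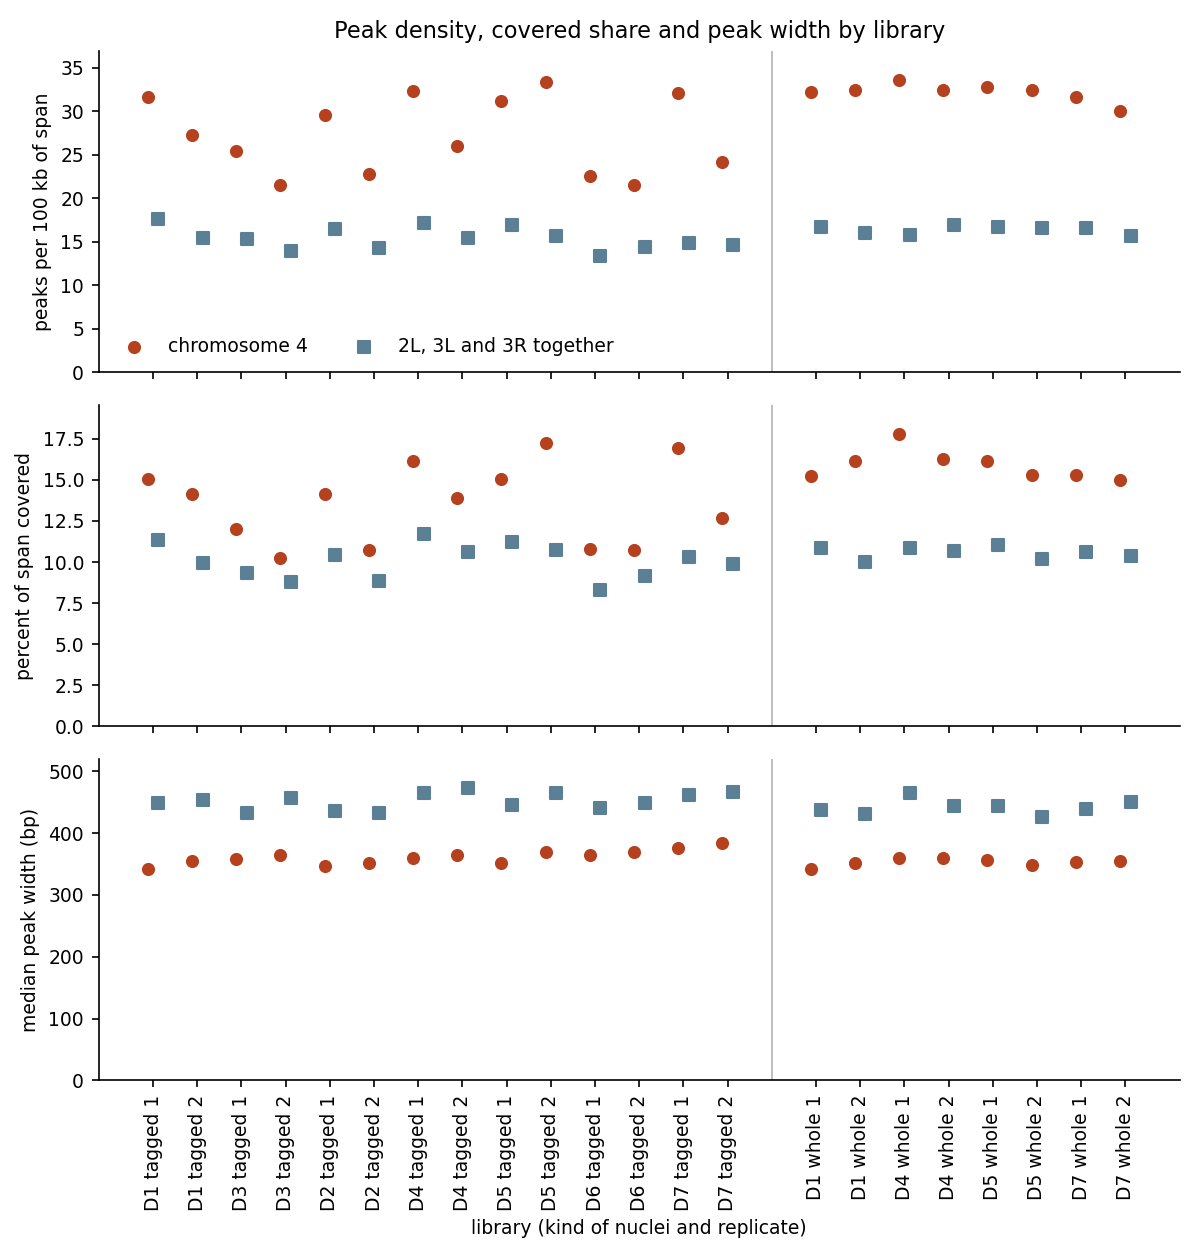
Peaks per 100 kb (top), percent of the span covered by peaks (middle) and median peak width in bp (bottom) in each library, tagged on the left and whole embryo on the right, for chromosome 4 (circles) and for 2L, 3L and 3R together (squares). Circles lie above squares in the upper panels and below them in the lowest panel in all 22 libraries.

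Peaks of chromosome 4 were narrower. The median width per library was 342 to 384 bp on chromosome 4 and 432 to 473 bp on the arms in tagged nuclei, with no overlap between the ranges. The mean difference was -90.5 bp in tagged nuclei (lower in 14 of 14 libraries; exact sign-flip test, two-sided, adjusted p = 0.000407) and -88.6 bp in whole embryos (lower in 8 of 8; adjusted p = 0.0112). Without the lettered peaks the differences were -51.4 bp in tagged nuclei and -62.1 bp in whole embryos. That setting drops peaks with several summits, which were commoner on the arms in every list that has them. In the 7 tagged libraries of the larger lettered style they averaged 22.4% of the peaks of chromosome 4 and 31.1% of those of the arms. The means also include the lists without lettered peaks, where nothing was dropped and the tagged difference was -97.5 bp. After merging, the median region was 412 bp wide on chromosome 4 and 485 bp on the arms. Regions wider than 1000 bp made up 59 of 485 (12.2%) and 19.5% of the arms' regions.

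Peak strength gave no call with the full lists, and other settings gave calls in both directions. The authors' fold over genomic DNA had a median of 2.71 ± 0.209 on chromosome 4 and 2.73 ± 0.176 on the arms in tagged libraries, higher on chromosome 4 in 7 of 14 (exact sign-flip test, two-sided, adjusted p = 0.634). In whole embryos it was 2.68 ± 0.0918 and 2.75 ± 0.143, lower on chromosome 4 in 6 of 8 (same exact test, adjusted p = 0.107). The sign of this small difference moved with the style of the lists: it was negative in all 4 tagged libraries without lettered peaks (-0.383 to -0.0404) and positive in all 3 of the style of replicate 2 of D2, D3 and D6 (0.0913 to 0.175). The part of the style in it was not tested. In tagged nuclei the difference was -0.23 with peaks of a -log10 q of at least 10 (exact test, adjusted p = 0.00061), and 0.211 on the strongest 50% of each list (exact test, adjusted p = 0.0078). Over merged regions, the highest fold in any library had a median of 2.91 on chromosome 4 and 2.90 on the arms, and it passed 10 in 44 regions (9.07%) of chromosome 4 and in 11.1% of the arms' regions.

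Long empty stretches took less of chromosome 4 than of the arms, a comparison added after these values were seen. Gaps are bounded by the same peaks that set the density, so this describes how the regions were spaced and is no independent result. Neighbouring regions of chromosome 4 were separated by a median of 840 bp, and those of the arms by 890.5 bp. The upper tail differed: the 90th percentile of gaps was 5413 bp against 9899 bp, and the longest gap 21369 bp against 297299 bp. Gaps longer than 10 kb numbered 12 on chromosome 4 and took 13.1% of its span, while they took 54.8% of the arms. Outside such gaps, regions stood at 44.3 per 100 kb on chromosome 4 and 44.9 per 100 kb on the arms.

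Per library the same picture was seen. Gaps over 10 kb took 33.9% ± 9.97 of chromosome 4 and 65.4% ± 2.30 of the arms in tagged nuclei (lower on chromosome 4 in 14 of 14; exact sign-flip test, two-sided, adjusted p = 0.000488 over 12 tests), and 22.99% ± 3.14 and 63.4% ± 0.897 in whole embryos (lower in 8 of 8; adjusted p = 0.0104). Outside them the peak density was 41.2 ± 1.45 on chromosome 4 and 44.4 ± 1.202 per 100 kb on the arms in tagged nuclei (lower in 13 of 14; exact sign-flip test, adjusted p = 0.0011), and 41.8 ± 0.636 and 44.7 ± 0.889 in whole embryos (lower in 8 of 8; adjusted p = 0.0104). The density outside gaps depended on the length chosen. With gaps over 5 kb set aside, the densities of 64.4 and 63.7 in tagged nuclei and of 63.3 and 63.5 in whole embryos did not pass the exact test (adjusted p = 0.297 in tagged nuclei and 0.633 in whole embryos). With gaps over 20 kb set aside, whole embryos had 34.1 on chromosome 4 and 31.9 on the arms, higher on chromosome 4 in 8 of 8 libraries (exact test, adjusted p = 0.0104), and tagged nuclei had 30.2 and 31.3 (adjusted p = 0.153).

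The 3 longest gaps of chromosome 4 ran from 603812 to 625180, from 1147967 to 1167020 (19054 bp) and from 247798 to 264045 (16248 bp). Divided into stretches of 100 kb, the chromosome held 23 to 49 regions in each of the first 13 stretches. In the first of them, regions began only at position 54429, and it held 31. Its count was not scaled to that shorter length, so it was more densely filled than the count shows. By count, the richest were the stretches starting at 100001 and at 800001 with 49 regions each. The poorest of the 13 was the one starting at 1100001 with 23.

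**Figure D2:**
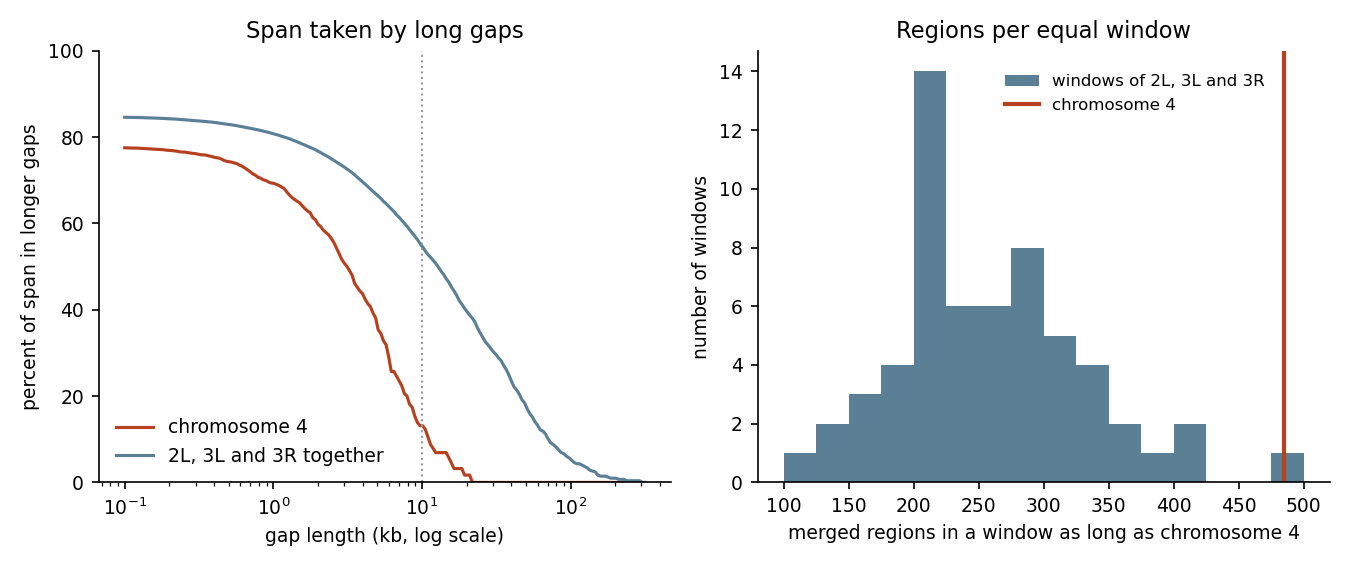
Left, the percent of the span lying in gaps longer than the length on the x axis (kb, log scale), for chromosome 4 and for 2L, 3L and 3R together, with 10 kb dotted. Right, the number of merged regions in each of 59 windows of the arms as long as the span of chromosome 4 (bars) and in chromosome 4 itself (line). Long gaps take 13.1% of chromosome 4 and 54.8% of the arms at 10 kb, and the line at 485 lies above every window.

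The strongest regions of chromosome 4 lay near its low end. By the median fold over all 22 libraries, 4 of the top 5 lay between 63026 and 91597. Region 4:79034-80449, 1416 bp wide, led with a fold of 26.5 to 38.0 (median 31.4) in tagged nuclei and 27.6 to 36.9 (median 33.7) in whole embryos. The ranges of the tagged and whole-embryo libraries overlapped. Region 4:86577-88258 had 12.1 to 20.1 (median 17.1) in tagged nuclei and 16.6 to 20.99 (median 18.6) in whole embryos.

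Region 4:88715-91597 was both among the 5 strongest and among the 5 widest (2883 bp). Its fold was 11.2 to 25.4 (median 14.3) in tagged nuclei and 15.1 to 24.6 (median 19.2) in whole embryos. Here the values split by the style of the lists: the 8 libraries without lettered peaks had 20.2 to 25.4 and the other 14 had 11.2 to 18.1, without overlap. Region 4:349620-350221, the strongest away from the low end, had 9.93 to 17.3 (median 14.6) in tagged nuclei and 14.8 to 20.1 (median 16.1) in whole embryos. Region 4:63026-64891 had 9.66 to 17.1 (median 14.2) in tagged nuclei and 2.97 to 16.6 (median 15) in whole embryos. Replicate 2 of D4 whole embryo alone gave the 2.97, and the next lowest value was 12.9. That list has lettered peaks, and the part of this in the value was not tested.

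The widest region, 4:68530-73833, covered 5304 bp and was found in all 22 libraries with a fold that split by the style of the lists: 6.61 to 8.74 in the 8 libraries without lettered peaks and 1.98 to 5.37 in the other 14, without overlap. The others among the 5 widest were 4:1046327-1050030 (3704 bp), 4:682787-685994 (3208 bp) and 4:526459-529391 (2933 bp), with median folds of 3.01, 5.60 and 4.19. The widest region of the arms was 26404 bp.

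Fewer regions of chromosome 4 were found in every library, and more were found in most but not all. A peak was present in all 22 libraries in 177 regions of chromosome 4 (36.5%) and in 43.0% of the arms' regions. Of the 59 windows of equal length, 56 had a larger share. Regions found in 8 to 21 libraries made up 18.1% (8 to 14) and 23.5% (15 to 21) on chromosome 4, against 11.3% and 16.6% on the arms. Those found in a single library made up 7.01% and 10.4%. As on the arms, regions found in all libraries were wider (median 772 bp, against 218 bp for those in a single library) and stronger (median highest fold 6.30, against 1.73).

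**Figure D3:**
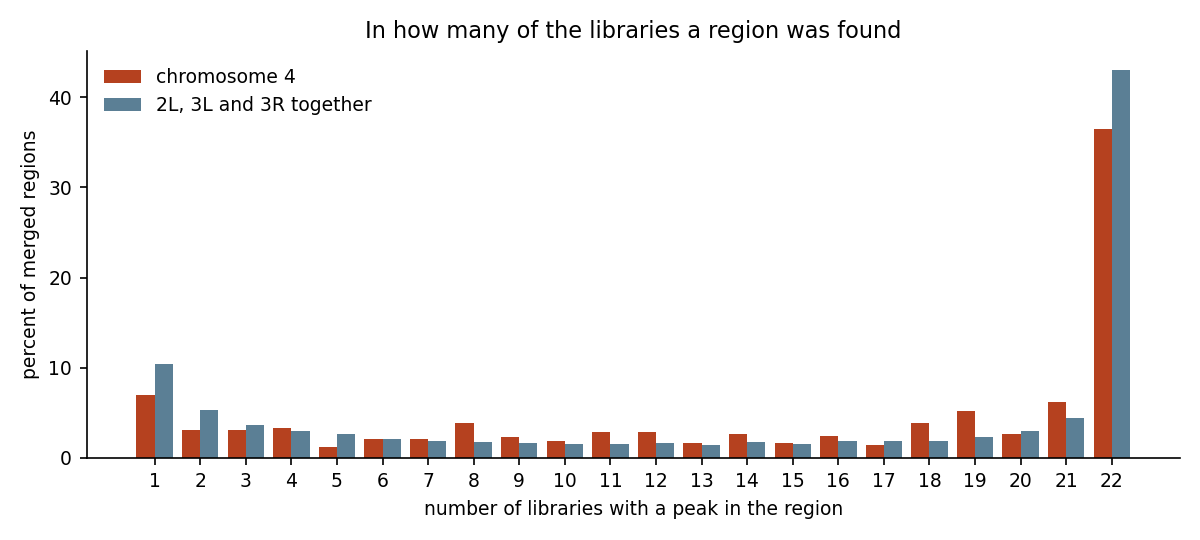
Percent of merged regions by the number of libraries with a peak in the region, for chromosome 4 (left bar of each pair) and for 2L, 3L and 3R together (right bar). At 22 libraries the bars stand at 36.5% and 43.0%, and at 1 library at 7.01% and 10.4%.

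The share of regions found in a library was higher on chromosome 4 than on the arms in whole embryos, with the full lists. A whole-embryo library held 76.7% ± 3.34 of the regions of chromosome 4 and 69.6% ± 2.09 of those of the arms (higher on chromosome 4 in 8 of 8; exact sign-flip test, two-sided, adjusted p = 0.0112). That difference was -0.145 points with lists cut to equal length by width and -1.38 on the strongest 50% of each list, and passed in neither (exact test, adjusted p = 0.914 and 0.352). The merged regions also include those found in no whole-embryo library, 5.77% on chromosome 4 and 11.4% on the arms. These lower the share found in whole embryos more on the arms, and they enter the comparison with tagged libraries below too. A tagged library held 63.9% ± 11.7 and 64.8% ± 6.71 (higher in 6 of 14; same exact test, adjusted p = 0.634). Tagged libraries of chromosome 4 ranged from 47.6% in replicate 2 of D3 to 80.4% in replicate 2 of D5.

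The difference between chromosome 4 and the arms was -0.878 percentage points in the 14 tagged libraries and 7.08 in the 8 whole-embryo libraries (exact permutation of libraries, two-sided, p = 0.0066, adjusted p = 0.033 over 5 tests; a test added after the values were seen). With the 8 tagged libraries of the strains that also gave whole-embryo libraries, it was 2.21 against 7.08 and did not pass (p = 0.0943, exact; adjusted p = 0.127). Within the style of 7 tagged and 4 whole-embryo libraries it was -0.597 against 6.80 (exact p = 0.0515), and within the style of 4 and 4 it was 4.001 against 7.37 (exact p = 0.4). Of these tests and the one blocked by strain, only that over all 14 tagged libraries passed after adjustment.

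Regions that whole embryos held in all libraries were found in tagged nuclei less often on chromosome 4 than on the arms, with the full lists. All 8 whole-embryo lists held 294 regions of chromosome 4 (60.6%) and 8445 of the arms (55.2%). Of these, a tagged library held 73.5% to 98.3% on chromosome 4 and 89.0% to 98.7% on the arms. The means were 89.3% ± 8.89 on chromosome 4 and 95.4% ± 3.24 on the arms (SD, n = 14), lower on chromosome 4 in 13 of 14 libraries (exact sign-flip test, two-sided, p = 0.0011, adjusted p = 0.00275 over 5 tests). The exception was replicate 1 of D7, with 98.3% and 96.1%. This test was added after the counts by domain were seen. On the strongest 50% of each list the same exact test gave a difference of -0.246 points (p = 0.713). The regions were chosen because every whole-embryo list held them, so some shortfall in tagged lists was built in. It was built in on both chromosome 4 and the arms, but not necessarily to the same extent, since the choice kept 60.6% and 55.2% of their regions. The p-values take no account of it, and the classes by strength below share it. The part of that choice in the difference was not tested.

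The domains held the 294 regions to different extents. In order from anterior, the 2 libraries held 97.3% and 91.8% in D1, 89.5% and 74.5% in D3, 95.6% and 81.6% in D2, 97.6% and 91.5% in D4, 97.6% and 96.9% in D5, 80.3% and 73.5% in D6, and 98.3% and 84.4% in D7. D6 was lowest, and replicate 2 was lower than replicate 1 in every domain. The gap to the arms moved with the style of the lists: it was -1.29 to 2.17 points in the 4 libraries without lettered peaks, -10.0 to -1.18 in the 7 of the next style and -18.6 to -10.7 in replicate 2 of D2, D3 and D6. The part of the style in this result was not tested.

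By strength, differences appeared in the weaker classes, the strong ones being nearly complete on the arms. When the regions were split at the quartiles of the whole-embryo fold on the arms (2.55, 3.77 and 6.49), tagged libraries held 74.4% ± 20.3 of the 89 weakest regions of chromosome 4 and 85.6% ± 9.24 of those of the arms (lower in 12 of 14; exact sign-flip test, adjusted p = 0.00488). In the next quartile they held 90.2% ± 10.0 and 96.1% ± 3.65 (lower in 13 of 14; exact test, adjusted p = 0.00244). Above that, 99.6% and 99.8% were found in the third quartile (exact test, adjusted p = 0.32), and 100% and 99.9% in the strongest (adjusted p = 0.00488 for a difference of 0.0541 points). With the arms that close to 100%, these classes leave almost no room for a shortfall to appear. The weaker classes were also fuller on chromosome 4, which had 30.3% and 29.3% of its 294 regions in them.

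**Figure D4:**
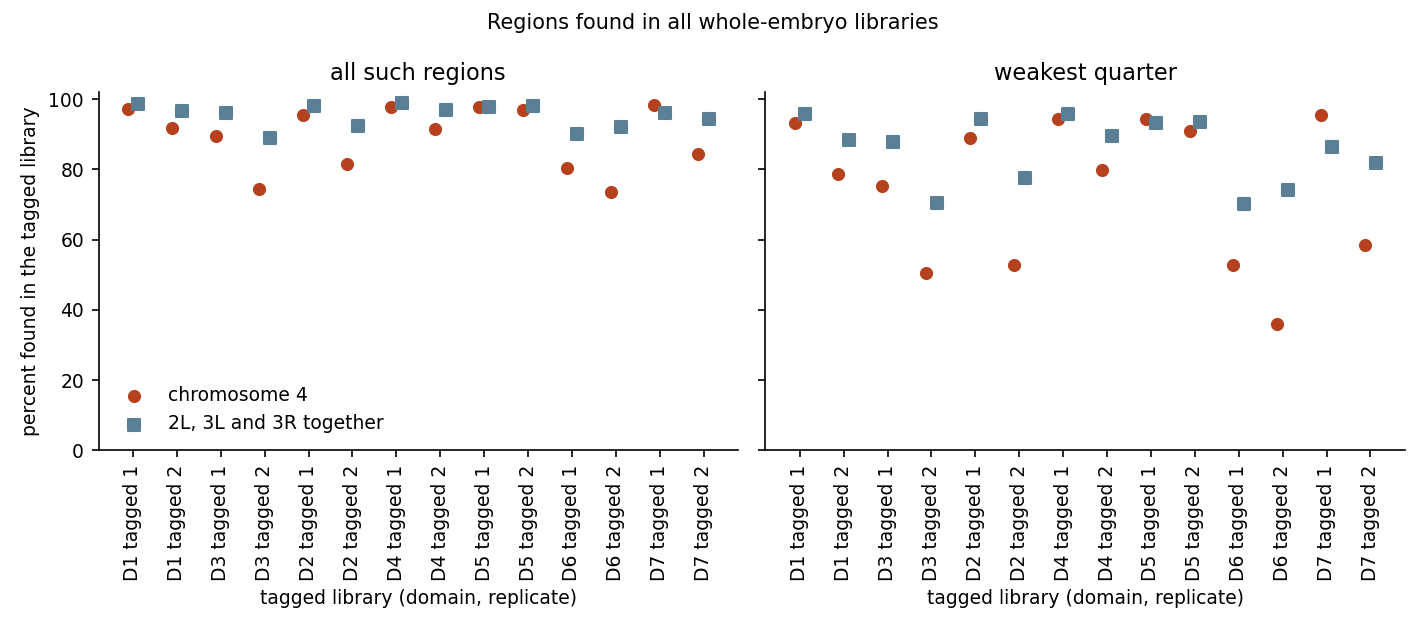
Percent held by each tagged library of the regions present in all 8 whole-embryo libraries, for chromosome 4 (circles) and for 2L, 3L and 3R together (squares), over all such regions (left) and those in the lowest quartile of the whole-embryo fold (right). Circles range from 73.5% to 98.3% on the left and from 36.0% to 95.5% on the right.

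Counted by domain, D6 and D3 lacked the most regions of chromosome 4. Of the 294 regions held by every whole-embryo library, 45 (15.3%) were missing from both D6 libraries, against 4.32% on the arms and 4.39% over the 6 main sequences. In D3 it was 27 (9.18%), against 3.30% on the arms and 3.3% over all. D2 lacked 9 (3.06%, against 1.47% over all), D4 lacked 7 (2.38%, against 0.898%), D7 lacked 5 (1.70%, against 2.3%), D1 lacked 4 (1.36%, against 0.61%) and D5 lacked 3 (1.02%, against 0.862%). The share on chromosome 4 was furthest above that over all regions in D6 and D3. In D5 it was close to that share, and in D7 below it. In D1, D4, D5 and D7 it rests on at most 7 regions. These shares were not tested against each other. In the weakest quartile D6 lacked 34 of 89 regions of chromosome 4 (38.2%) and 14.7% of those of the arms.

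These counts rest on both libraries of a domain, and the more complete library sets them. D1, D4, D5 and D7 each have a list without lettered peaks. D6, D3 and D2, which lacked the most, have none and share a style of their own in replicate 2. Style and domain therefore cannot be told apart in this ranking. Without replicate 1, the missing regions numbered 78 in D6, 75 in D3, 54 in D2, 46 in D7, 25 in D4, 24 in D1 and 9 in D5. With lists cut to equal length by strength, D6 lacked 25, and with equal length by width it lacked 10. It lacked 56 with a -log10 q of at least 10, 40 with 50% of the region covered and 6 on the strongest 50% of each list. The arms were not counted under these settings or without replicate 1, so the changes cannot be called particular to chromosome 4.

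Most missing regions were missing from 1 or 2 domains, on chromosome 4 and on the arms. Of 57 regions of chromosome 4 missing from any domain, 30 (52.6%) were missing from 1 domain only, 16 (28.1%) from 2, 6 (10.5%) from 3 and 5 (8.77%) from 4. On the arms 725 were missing, with 59.4%, 24.3%, 10.6% and 4.14% in the same classes. D6 and D3 lacked 16 in common, which is 35.6% of those missing from D6 and 59.3% of those missing from D3. The same overlap was not counted on the arms, so it cannot be called particular to chromosome 4. Of the missing regions, 34 of 45 in D6 and 19 of 27 in D3 were in the weakest quartile of the whole-embryo fold. On the arms 310 of 365 in D6 and 209 of 279 in D3 were in it, so this was not particular to chromosome 4. On chromosome 4, 2 of 485 regions (0.412%) were found in every tagged library but the D6 pair, 4:226967-227298 and 4:963407-963748, against 33 (0.216%) on the arms. Region 4:226967-227298 had a fold of 2.09 to 2.80 in the 12 tagged libraries that held it and 2.34 to 3.36 in the 8 of whole embryos. In region 4:963407-963748 the fold was 2.04 to 2.91 and 2.46 to 3.03. No region of chromosome 4 was lacking from 1 other domain alone, and over all 7 domains such regions made up 0.412% on chromosome 4 and 0.673% on the arms.

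Regions gained in a domain were few. Of the 28 regions of chromosome 4 found in no whole-embryo library, both D1 libraries held 2 (4.1% over the 6 main sequences), both D4 libraries 1 (7.32%) and both D5 libraries 1 (2.93%), and no other domain held any in both its libraries (3.43% in D3, 0.849% in D2, 0.248% in D6 and 1.38% in D7). Regions of chromosome 4 found in no whole-embryo library made up 5.77%, against 11.4% on the arms. Region 4:570684-571040 was found in both D1 libraries, at 1.52 and 1.37 fold, and in no other tagged library. Region 4:191608-191856 was found in both D5 libraries, at 1.75 and 1.503 fold, and in no other.

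D6 and D3 held fewer regions than whole embryos on the arms too. Their lists were also shorter than any of whole embryos. They had 16997 and 18043 peaks in D6 and 19346 and 17545 in D3, against 19847 to 21373 in whole embryos. Among tagged lists, replicate 1 of D3 was close to the median of 19324.5. The part of list length in the ratios below was not tested. On chromosome 4 as a whole, D6 held 0.653 times and D3 0.691 times the mean number of regions of whole embryos, and on the arms 0.81 and 0.856 times. D5 held 0.9997 times on chromosome 4 and 1.014 times on the arms. Both D6 and D3 were below whole embryos in every stretch of chromosome 4. In the 13 stretches of 100 kb, the mean number of regions found in D6 was 0.519 to 0.805 times that in whole embryos, and in D3 it was 0.507 to 0.845 times. D5 lay at 0.842 to 1.15 times. Over all tagged libraries the ratio was 0.769 to 0.922. No stretch carried the shortfall alone.

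**Figure D5:**
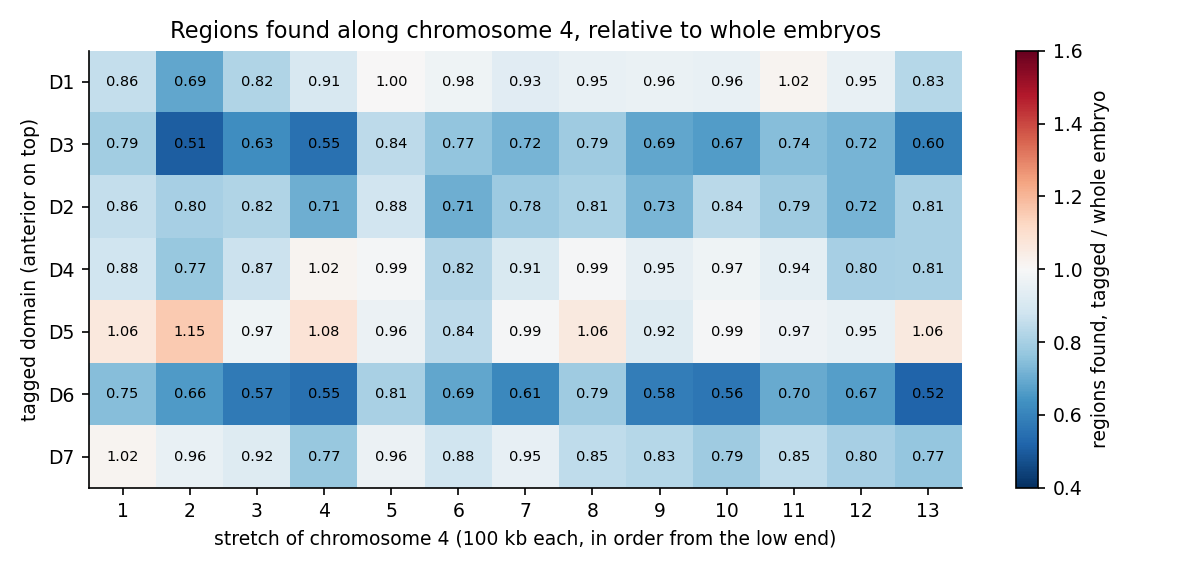
Mean number of regions found in the 2 tagged libraries of each domain divided by the mean of the 8 whole-embryo libraries, in 13 stretches of 100 kb in order from the low end of chromosome 4, with domains from anterior (top) to posterior. D3 and D6 are below 1 in every stretch, and D5 ranges from 0.842 to 1.15.

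The number of regions found did not separate tagged nuclei from whole embryos of the same strains. Among the strains with both kinds of library, tagged nuclei held 363 and 316 regions of chromosome 4 in D1, 370 and 304 in D4, 354 and 390 in D5, and 381 and 271 in D7. Whole embryos held 371 and 378 in D1, 403 and 374 in D4, 375 and 368 in D5, and 363 and 345 in D7. The ranges overlapped, with replicate 2 of D5 and replicate 1 of D7 above their own whole-embryo library and the other 6 below. The means were 343.6 ± 42.0 in tagged nuclei and 372.1 ± 16.2 in whole embryos (SD, n = 8 each; exact permutation test, two-sided, p = 0.101, adjusted p = 0.389 over 10 tests). With all 14 tagged libraries, which adds D2, D3 and D6, the difference was -62.3 regions (same exact test, adjusted p = 0.0579).

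Nor did positions along the axis separate. D3 held 283 and 231 regions, D2 337 and 251, and D6 247 and 239. Central nuclei (D4, D5) had 354.5 ± 36.7 regions against 291.9 ± 54.1 in the other tagged libraries (n = 4 and 10; exact permutation, two-sided, p = 0.0609, adjusted p = 0.389). Anterior nuclei (D1, D2, D3) had 296.8 ± 51.0 against 319.5 ± 61.9 (n = 6 and 8; exact p = 0.471, adjusted p = 0.523). Posterior nuclei (D6, D7) had 284.5 ± 65.8 against 319.9 ± 52.7 (n = 4 and 10; exact p = 0.303, adjusted p = 0.42). The means of the 7 domains spanned 129 regions (exact test over 135135 pairings of the libraries, p = 0.194, adjusted p = 0.389).

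The ratio of the density on chromosome 4 to that on the arms, taken within each list, gave no call either. It was 1.86 ± 0.186 in tagged nuclei and 1.97 ± 0.0777 in whole embryos of the same strains (n = 8 each; exact permutation, two-sided, adjusted p = 0.389). With all 14 tagged libraries the difference was -0.204 (same exact test, adjusted p = 0.0579). The highest ratios were those of replicate 1 of D7 (2.15) and replicate 2 of D5 (2.13), and the lowest those of replicate 2 of D6 (1.49), D3 (1.55) and D2 (1.59).

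Region by region, the number of libraries leaves little room for a call. The smallest p that Fisher's exact test allows is 0.000155 for 8 tagged against 8 whole-embryo libraries, 0.000333 for anterior nuclei and 0.000999 for central and for posterior nuclei. After adjustment over all regions tested, a call at that p needs 29, 62, 186 and 186 regions at it in the tagged, anterior, central and posterior comparisons, and 1, 53, 36 and 17 regions of the 6 main sequences were there. A count of 0 calls therefore does not show that regions of chromosome 4 were alike between groups. Between the 8 tagged and the 8 whole-embryo libraries, Fisher's exact test (two-sided, Benjamini-Hochberg adjusted over 9055 regions of the 6 main sequences) called 0 of 182 regions of chromosome 4 and 0% of all. At an unadjusted p of 0.05 it marked 2 as found more often in tagged nuclei (0.828% of all) and 7 as found less often (2.19% of all), which is 1.099% and 3.85% of the 182. Region 4:419251-419607 was held by 0 of 8 tagged libraries, and by none of the other 6, against 6 of 8 whole-embryo libraries at 1.47 to 1.78 fold (exact p = 0.00699, adjusted p = 1). Regions 4:107981-108246 and 4:107498-107827, which lie next to each other, and 4:1259531-1259772 were each held by 8 of 8 whole-embryo libraries and by 5, 4 and 4 of the 14 tagged libraries. Region 4:800824-801086 was held by 3 of 14 tagged and 6 of 8 whole-embryo libraries. In the other direction, 4:847906-848167 was held by 6 of 14 tagged libraries at 1.96 to 2.33 fold and by 0 of 8 of whole embryos, and 4:411019-411297 by 8 of 14 and 1 of 8.

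Of 216 regions of chromosome 4 tested among tagged libraries, Fisher's exact test called 0 after adjustment over 9284 regions in any of the 3 comparisons, with 0% called over all. For central nuclei, 8 were found more often at an unadjusted p of 0.05 (3.70%, against 5.22% of all) and 0 less often (0.248% of all). Regions 4:934018-934376, 4:952138-952453 and 4:316118-316431 were each held by all 4 central libraries and by 1 of the other 10 (exact p = 0.004995, adjusted p = 0.409). Their folds were low, at 1.36 to 2.06. Region 4:203136-203386 was held by 3 of 4 central libraries and no other tagged one, and 4:1236450-1236729 by 4 of 4 and 2 of 10.

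For anterior nuclei, 1 region was found more often (3.03% of all) and 3 less often (2.76% of all). Region 4:420061-420397 was held by 6 of 6 anterior libraries and 3 of the other 8, and by 8 of 8 whole-embryo libraries (exact p = 0.031, adjusted p = 0.535). The 3 regions found less often were 4:845396-846118 and the regions starting at 934018 and 316118 named above, each held by 0 of 6 anterior libraries and 5 of the other 8. For posterior nuclei, 0 were found more often (0.28% of all) and 7 less often (3.48% of all). Regions 4:1226023-1226511, 4:625181-625945 and 4:402634-403202 were each held by 1 of 4 posterior libraries, replicate 1 of D7, and by 10 of 10 others (exact p = 0.011, adjusted p = 0.641). Region 4:974202-974487 was held by 0 of 4 posterior and 8 of 10 other libraries, and 4:1061233-1061576 by 1 of 4 and 9 of 10. No region of chromosome 4 was held by all libraries of a side and none of the other, in any of the 4 comparisons. Over the 6 main sequences such regions made up 0.142% for central nuclei, 0.115% and 0.0948% for anterior nuclei, 0.0672% for posterior nuclei and 0.00395% for tagged nuclei against whole embryos.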

How the data were processed

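ATAC-seq peak lists of 22 libraries were used. The genomic DNA sample was not analysed here. Per the submitters' processing notes, the authors used build dm3, Bowtie2 2.2.9, SAMtools 1.3.1 and MACS2 2.1.1.2, and per the file headers rtracklayer 1.40.3 wrote the lists. Other settings, among them any Tn5 offset of reads, are not given in the sources used here. Per the design text, genomic DNA was the reference of peak calling. The authors' deposited score was 10 times the -log10 q, which was at least 2 in every peak. The authors' fold is over that reference at the summit. Fold and q served to describe, rank or filter peaks, and the median fold per library was also tested between chromosome 4 and the arms.

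Peaks of all lists that shared 1 bp or more were merged, and a library with any peak in a merged region was taken to hold it. Density and covered share are per span from the lowest to the highest merged base. Python 3.11.15, numpy 2.4.6, scipy 1.17.1 and matplotlib 3.10.9 were used. Chromosome 4 and the arms were compared by exact sign flips over libraries, groups by exact permutations, and single regions, held by and lacking from 2 or more of the libraries each, by Fisher's exact test, with Benjamini-Hochberg adjustment at 0.05. The tests were run on simulated data first. Errors are SDs over libraries. The members and lists were chosen with earlier results of these data known. The rule for naming took the 5 strongest and 5 widest regions, up to 5 per comparison and direction with the smallest unadjusted Fisher p, regions found in or lacking from 1 domain alone, and the 3 longest gaps. Gene lists were not tested, since no region could be linked to a gene.

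Same-numbered tagged and whole-embryo libraries of a construct are of the same strain, per the labels. After group means were subtracted, they correlated at a mean of 0.185 (range 0.00149 to 0.352) over regions, against -0.0263 for other strains, and 7 of 8 correlated best with their own.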

Additional observations from a re-analysis of the deposited data

Results flagged for a closer look

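Among 60 combinations of a group and a measure, 2 libraries stood apart from the rest of their group by Dixon's criterion, which chance meets in about 1 group in 20. In replicate 1 of D4 whole embryo, peaks covered 17.8% of chromosome 4, while the other 7 whole-embryo libraries lay between 14.98% and 16.3%. It also held the most regions of chromosome 4 among whole embryos, 403. In replicate 1 of D7, the median fold on chromosome 4 minus that on the arms was -0.383, while the other 3 posterior libraries lay between 0.016 and 0.0961. That library is the only 1 of the 4 whose list has no lettered peaks; the part of this in the value was not tested.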

How the results depend on the processing

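Density, covered share and width differences between chromosome 4 and the arms kept their direction and call under all alternatives run. The density difference was 4.77 to 13.1 peaks per 100 kb in tagged nuclei and 6.01 to 17.0 in whole embryos. The fold difference was not stable. With a -log10 q of at least 10 it was -0.23 in tagged nuclei and -0.33 in whole embryos, and with lists of equal length (16830 peaks) by strength -0.183 and -0.373, all past the threshold. Against X it was -0.174 and -0.255, also past it, and against 3L alone -0.0959 in whole embryos. It was positive with equal length by width (0.0556 in tagged nuclei), on the strongest 50% of each list (0.211 and 0.0718), against 3R alone (0.00836 in tagged nuclei) and against the 2 Mb next to the centromeres (0.071 and 0.0582), and of these the tagged values of 0.211 and 0.071 passed the threshold. The share found, on chromosome 4 minus the arms, was -7.1 points in tagged nuclei and -0.145 in whole embryos with equal length by width, -6.24 and -1.38 on the strongest 50%, and 1.5 in tagged nuclei against the 2 Mb next to the centromeres. In tagged nuclei the first 2 of these passed the threshold. The share of the 294 whole-embryo regions found differed by -0.246 points from the arms on the strongest 50% and did not pass there. With equal length by width, posterior nuclei held 6.25 more regions than the others and had a density ratio 0.0602 higher. Missing regions were 10 in D7 with a -log10 q of at least 10; 25 in D6 and 3 in D7 with equal length by strength; 12 in D3, 4 in D4, 10 in D6 and 0 in D7 with equal length by width. On the strongest 50% they were 6 in D3 and in D6, 3 in D4, 1 in D2, and 0 in D1, in D5 and in D7. With 50% of the region covered they were 7 in D1 and 3 in D7. Of single regions, 3 changed direction: 1236450 for central nuclei (-10 points, -log10 q of at least 10), 934018 for central nuclei (-10 points, equal length by strength) and 107981 for tagged nuclei (25 points, equal length by width). The causes were not tested.

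With the replicate block, the number of regions found differed between central and other nuclei by 62.6 (exact p = 0.0431, adjusted p = 0.285) and between tagged nuclei and whole embryos by -28.5 (exact p = 0.0859, adjusted p = 0.286), and it changed no call. For the share found, tagged minus whole embryo, the block over 8 strains gave -4.88 points (exact p = 0.102).

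Leaving out each library in turn gave a fold difference of -0.0362 to 0.00708 in tagged nuclei, positive without replicate 1 of D7, and a posterior difference in density ratio of -0.159 to 0.061, positive without replicate 2 of D5, D6 or D7. Missing regions ranged over 4 to 24 in D1, 9 to 54 in D2, 27 to 75 in D3, 7 to 25 in D4, 3 to 9 in D5, 45 to 78 in D6 and finally 4 to 46 in D7. The high ends came without replicate 1 of the domain. Without replicate 2 they were 8 in D1 and 7 in D5, and without replicate 2 of D7 whole embryo 5 in D5. No other call changed. Read depth was unknown, so no limit of detection can be given.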
